A study of Mus musculus with 7 samples.

Results

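Cd3d, Cd3e, Cd3g, Trac, Trbc2, Cd4, Cd8a, Cd8b1, Lef1 and Foxp3 are genes by which T cells and their main subsets are usually recognized. These 10 genes were chosen by name from the 33864 genes of the 3 deposited single-cell count tables of mouse pancreas, and all 10 have rows there. The C57BL/6 mice were 2 months old and fell into 3 groups, with 1 library per mouse. The WT group (n = 2) and the i4F group (n = 3, genotype i4F-B) drank doxycycline at 1 mg/ml with 7.5% sucrose for 7 days. The i4F mice are heterozygous for a transgene from which doxycycline induces the reprogramming factors Oct4, Sox2, Klf4 and Myc, and for its activator rtTA in the Rosa26 locus, which is not restricted to pancreatic cells. The caerulein group (n = 2) was wild type and received 7 injections a day of the secretagogue caerulein at 100 µg/kg on 2 days, which induces mild acute pancreatitis, and the labels name no doxycycline for this group. The question here was which T cells the pancreas held in each group, and whether CD4, CD8 and regulatory T cells made up different shares of them.

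A T cell recognizes peptides through a receptor of an alpha and a beta chain, whose constant parts are encoded by Trac and by Trbc1 or Trbc2. The receptor has no signalling tail of its own and reaches the surface only with the CD3 chains, encoded by Cd3d, Cd3e and Cd3g, which gamma-delta T cells also use. Helper and regulatory T cells carry the co-receptor CD4 and cytotoxic T cells carry CD8, made of the products of Cd8a and Cd8b1. Foxp3 is the transcription factor that defines regulatory T cells, and Lef1 is a transcription factor of naive T cells that is also used downstream of Wnt signals outside the immune system.

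The 7 libraries held 4327 to 15138 cells and 15469018 to 64784216 UMIs (unique molecular identifiers, which count captured mRNA molecules). The authors named clusters of cells, and the label NKs_Tcells of the WT table (193 cells) and NK_T of the i4F table (1529 cells) are called NK-labelled cells here. The caerulein table has no such label. The NK-labelled cells numbered 72 and 121 in the WT mice, against 194, 342 and 993 in i4F. Their median depth was 2247.5 and 1667 UMIs in WT mice but 782, 759.5 and 1186 in i4F mice, so shares of cells are given after thinning to 1000 UMIs per cell, which leaves out shallower cells, and beside other depths where these change the order of the groups. Of the NK-labelled cells 65 of 72 and 110 of 121 were kept in the WT mice, but 54 of 194, 79 of 342 and 698 of 993 in i4F, so most cells of i4F 1 and i4F 2 are not in the thinned shares. Levels are given as CPM (UMIs of the gene per 1000000 UMIs of the cells summed). The rtTA transgene gave 722 to 2571 UMIs in the i4F libraries against 1 to 16 in the others. Pairs of libraries shared 3 to 39 cell barcodes.

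The label holds T cells, but not only T cells. A UMI of at least 1 of the 5 receptor genes Cd3d, Cd3e, Cd3g, Trac and Trbc2 was found in 60 of 72 and 96 of 121 NK-labelled WT cells, and in 144 of 194, 288 of 342 and 930 of 993 NK-labelled i4F cells. Cells with such a UMI are called receptor-positive. In ductal cells, which should lack these genes, 0.728% of 1374 WT cells (median 5126 UMIs) and 3.07% of 976 i4F cells (median 3024 UMIs) were receptor-positive. In cells labelled B_lymphocytes they were 6 of 158 WT cells (median 2245 UMIs), a larger share than in WT ductal cells, and 53 of 2086 i4F cells (2.54%, median 873.5 UMIs). Markers of other lymphocytes were present in all 5 mice. The 9 NK cell markers summed to 5556 and 3351 CPM in WT and to 1046, 383 and 652 CPM in i4F NK-labelled cells. In the test across all genes 7 of the 9 fell, where 1.23% of all genes fell. Ncr1, Klrb1c, Klre1 and Eomes lay below the 42.8 CPM of the count filter in every i4F mouse. They entered the test through the WT mice, which favoured lower values in i4F, so the count of markers that fell is a description only. The 8 gamma-delta T cell markers summed to 914 and 1066 CPM in WT and to 505, 119 and 296 CPM in i4F mice, with 0 of 3 tested genes called. Il17a alone ran the other way in every i4F mouse (5.47 and 12.8 CPM in WT, 108, 39.7 and 16.9 CPM in i4F). The 7 markers of group 2 innate lymphoid cells summed to 1505 and 2059 CPM in WT against 2205, 810 and 434 CPM in i4F, with 0 of 7 called. Of the 2205 CPM of i4F 1, Calca gave 1118 CPM (137 and 257 CPM in WT). Il1rl1, Il13, Rora and Gata3 were lower there than in both WT mice, and Il5 and Areg lay between them. The 7 myeloid markers summed to 43.8 and 116 CPM in WT but to 592, 304 and 169 CPM in i4F mice. Of the 3 tested, Lyz2, C1qa and C1qb, 0 were called (median log2 fold change 3.42). In both WT mice these 3 lay below the 42.8 CPM of the count filter. They entered the test through the i4F mice, which favoured higher values there. Itgax, not tested, ran the other way, with 38.3 and 64.2 CPM in WT against 5.15, 3.30 and 5.89 CPM in i4F mice. The 6 genes of dissociation stress summed to 4406 and 5483 CPM in WT against 1262, 2350 and 7013 CPM in i4F mice. The 5 B cell markers summed to at most 29.4 CPM and were all at 0 in i4F 2. The 5 receptor genes themselves summed to 3224 and 3445 CPM in WT and to 3271, 3090 and 4391 CPM in i4F mice. All levels below are therefore levels in a mixture, and fewer cells of a type cannot be told apart from less RNA per cell.

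Most UMIs of the CD3 genes lay in the NK label. It held 95.6% of the 274 Cd3d UMIs, 95.0% of the 101 Cd3e UMIs and 92.9% of the 393 Cd3g UMIs of the WT mice, with 89.0%, 85.9% and 86.4% in the i4F mice. These shares are of UMIs summed over mice, and i4F 3 gave most of the i4F UMIs. In i4F 2 alone the shares were 84.4%, 78.8% and 66.7%, with 18.6% of its Cd3g UMIs in stellate labels. These 3 genes lie within 40056 bases of chromosome 9 (GRCm38, GENCODE M21), Cd3g at chr9:44969572-44980431 on the minus strand, Cd3d at chr9:44981786-44987339 on the plus strand and Cd3e at chr9:44998740-45009627 on the minus strand. Cd3g and Cd3d are transcribed away from each other, with starts 1355 bases apart. The 150 bases before each of these starts (RefSeq promoter table, GRCm38.p6) are shown because the pair is read from one stretch of DNA and because the Cd3d side, unlike the Cd3g side, holds the letters CTTTGA, a core motif of the TCF and LEF proteins, to which Lef1 belongs. Capitals mark CTTTGA or its reverse complement TCAAAG.
Cd3g, minus strand, chr9:44980432-44980581: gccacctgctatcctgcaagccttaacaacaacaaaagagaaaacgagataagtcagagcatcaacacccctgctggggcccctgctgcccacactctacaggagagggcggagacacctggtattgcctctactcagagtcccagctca
Cd3d, plus strand, chr9:44981636-44981785: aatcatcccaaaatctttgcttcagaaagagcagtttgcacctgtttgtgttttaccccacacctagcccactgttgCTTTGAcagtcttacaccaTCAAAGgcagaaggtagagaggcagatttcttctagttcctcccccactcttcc
Searched over 250 bases before the start and on both strands, the motif occurred in 13.8% of 32851 RefSeq promoters. RefSeq gave 10 windows for 6 of the 10 genes (Cd3d, Cd3e, Cd3g, Cd8a, Foxp3 and Lef1), and 2 windows held it, that of Cd3d with 2 matches and 1 of the 4 windows of Lef1 with 2. A match describes these letters only.

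Within the NK label the CD3 chains and receptor chains differed little between the groups. Cd3d, the delta chain of CD3, stood at 575 and 672 CPM in the WT mice and at 701, 644 and 899 CPM in the i4F mice. Although the fitted sums placed every i4F mouse above the WT mice after TMM scaling, the plain CPM of i4F 2 lay between the WT values. Cd3e, the epsilon chain, stood at 224 and 235 CPM in WT and at 196, 258 and 350 CPM in i4F mice, so the groups overlapped. Cd3g, the gamma chain, ran the other way, with 859 and 890 CPM in WT and 587, 449 and 751 CPM in i4F mice. Its i4F values were all below the WT values in plain CPM, but the groups overlapped after scaling. Trac stood at 421 and 411 CPM in WT and at 417, 558 and 627 CPM in i4F mice. Trbc2, the most abundant of the 10 genes in these 3′-end counts, stood at 1144 and 1237 CPM in WT and at 1370, 1180 and 1764 CPM in i4F mice. For both receptor chains the plain CPM of the groups overlapped.

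The co-receptors, Lef1 and Foxp3 gave fewer UMIs than the CD3 and receptor genes, except Lef1 in i4F 2 (95 UMIs, Cd3e 78), and most of their values were higher in the i4F mice. Cd4, the co-receptor of helper T cells, stood at 32.8 and 38.5 CPM (6 and 9 UMIs) in WT and at 92.7, 59.5 and 67.7 CPM (18, 18 and 92 UMIs) in i4F mice. Cd8a, the alpha chain of CD8, stood at 43.8 and 17.1 CPM (8 and 4 UMIs) in WT and at 72.1, 152 and 184 CPM (14, 46 and 250 UMIs) in i4F mice. Cd8b1, the beta chain, stood at 82.1 and 77.0 CPM in WT and at 124, 231 and 341 CPM in i4F mice. For these 3 genes every i4F mouse was above both WT mice, and i4F 1 was the lowest i4F mouse for both CD8 chains but the highest for Cd4. Foxp3 stood at 10.9 and 12.8 CPM (2 and 3 UMIs) in WT and at 61.8, 43.0 and 36.8 CPM (12, 13 and 50 UMIs) in i4F mice, again without overlap. Lef1 stood at 109 and 72.8 CPM in WT and at 92.7, 314 and 304 CPM in i4F mice, where i4F 1 lay within the WT range.

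**Figure D1:**
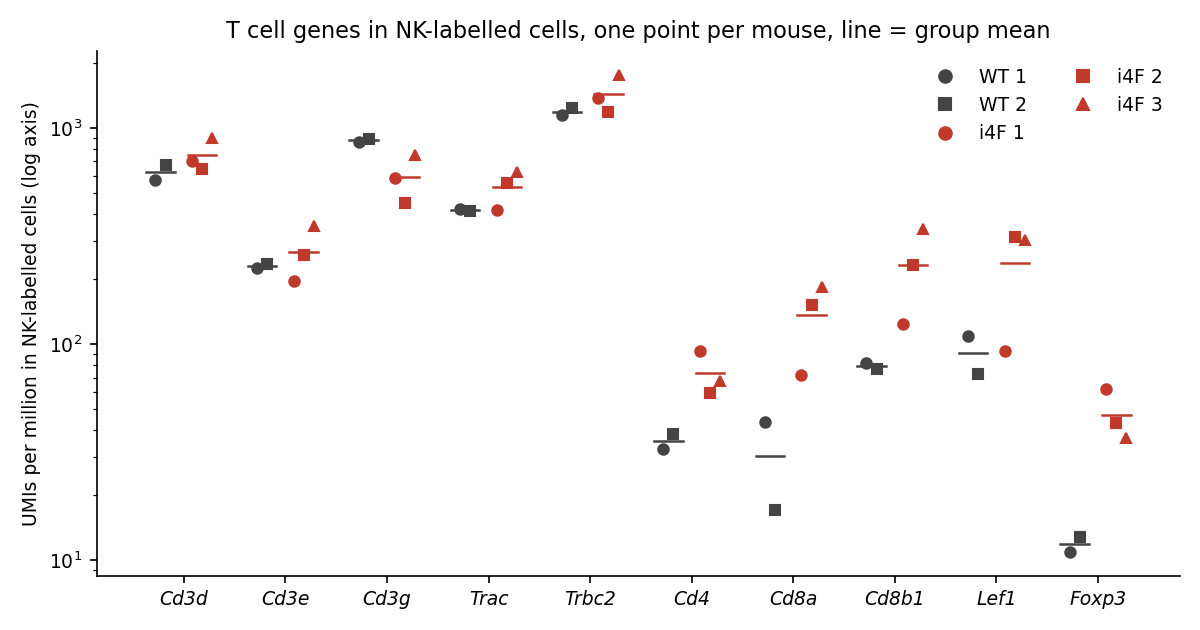
Level of each of the 10 genes in NK-labelled cells, in CPM on a log axis, with 1 point per mouse (WT dark grey, i4F red) and a line at each group's mean. The CD3 and receptor genes lie close together in both groups, though every i4F point of Cd3g is below both WT points. Cd4, Cd8a, Cd8b1 and Foxp3 have every i4F point above both WT points, and Lef1 has i4F 1 at 92.7 between the WT values.

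None of the 10 genes passed the test across the 3574 genes tested in NK-labelled cells (edgeR quasi-likelihood test on sums per mouse, adjusted p under 0.05). In that comparison 1.51% of all genes passed, 10 higher (0.28%) and 44 lower (1.23%) in i4F mice, or 31 higher and 69 lower with DESeq2. Of the 10 genes 5, Cd4, Cd8a, Cd8b1, Lef1 and Foxp3, had an unadjusted p under 0.05, as did 14.2% of all genes, and DESeq2 called 1, Cd8a. The filter on low counts asked for 42.8 CPM in at least 2 mice, a level that Cd4 and Foxp3 reached in 0 WT mice and Cd8a in 1, so these 3 genes entered the test through the i4F mice, which favoured higher values there, and the counts over the 10 genes are a description only. Without the filter Cd8a, Cd8b1 and Lef1 passed the edgeR test as higher, as did 83 of 17633 genes in all, and Foxp3 stood at 2.05 (edgeR adjusted p = 0.0770). The log2 fold change of Cd8a was 2.42 (SE 0.58, edgeR adjusted p = 0.0933), of Foxp3 1.99 (SE 0.58, adjusted p = 0.172), of Cd8b1 1.75 (SE 0.49, adjusted p = 0.163), of Lef1 1.59 (SE 0.55, adjusted p = 0.240) and of Cd4 1.11 (SE 0.37, adjusted p = 0.217). The 5 receptor genes had log2 fold changes from -0.42 for Cd3g to 0.51 for Trac, with edgeR adjusted p from 0.511 to 0.684. Every i4F mouse was above both WT mice for 6 of the 10 genes on the scaled values (Cd3d, Trbc2, Cd4, Cd8a, Cd8b1 and Foxp3) and below both for 0, where 16.4% and 17.3% of all genes were so ordered. The median log2 fold change was 0.81 over the 10 genes and 0.01 over all genes tested. Without i4F 1, Cd8a (2.72, edgeR adjusted p = 0.0242), Cd8b1 (2.06, adjusted p = 0.0272) and Lef1 (1.97, adjusted p = 0.0254) passed the edgeR test, where 0.592% of all genes passed as higher. The i4F libraries share their library name series with WT 1 and not with WT 2, and against WT 1 alone the log2 fold change was 1.88 for Cd8a, 1.73 for Cd8b1, 1.34 for Lef1 and 2.15 for Foxp3.

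The shares of subsets were counted among receptor-positive cells. A CD4 cell had a UMI of Cd4 and none of Cd8a or Cd8b1, a CD8 cell the reverse, and a regulatory cell had a UMI of Foxp3. Among NK-labelled cells the CD8 share was 5 of 60 and 9 of 96 cells in the WT mice and 15 of 144, 65 of 288 and 258 of 930 cells in the i4F mice. The exact 95% intervals, which cover counting error only, ran from 2.76 to 18.4% in WT 1 and from 24.9 to 30.7% in i4F 3. At the full depth i4F 1, with 10.4%, lay close to WT 2 with 9.38%. Thinned to 1000 UMIs the CD8 share was 7.34 and 6.91% in WT, against 18.4, 33.2 and 29.7% for i4F, with means of 7.13% ± 0.306 (SD, n = 2) and 27.1% ± 7.73 (SD, n = 3) and without overlap. Thinned to 500 UMIs it was 5.72 and 5.25% in WT, against 5.65, 15.7 and 16.3% for i4F, so that i4F 1 lay between the WT mice. The thinned value of i4F 1 rests on 54 cells. The exact permutation test gave p = 0.2 (two-sided), the smallest value that 3 against 2 mice allow, and 0.583 after adjustment over the 14 share tests.

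The CD4 share moved less. It was 4 of 60 and 6 of 96 cells in WT and 15 of 144, 14 of 288 and 80 of 930 cells in i4F mice, or 3.86 and 4.02% against 6.41, 2.61 and 6.11% after thinning, so that the groups overlapped (difference 1.10 points, exact permutation p = 0.6). Of all UMIs of the 3 co-receptor genes in these cells, Cd4 took 20.7 and 26.7% in WT, compared with 28.8, 13.1 and 11.4% for i4F, with the groups overlapping (exact permutation p = 0.6). Both kinds of co-receptor were seen together in 2 cells of i4F 3 and in 0 cells of the other 4 mice. No co-receptor UMI at all was seen in 51 of 60, 81 of 96, 114 of 144, 209 of 288 and 590 of 930 receptor-positive cells. The shares are therefore shares of cells in which the co-receptor was captured, and not a division of all T cells into subsets.

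The regulatory share rested on few cells. Foxp3 was seen in 1 of 60 and 2 of 96 receptor-positive NK-labelled cells in WT and in 7 of 144, 10 of 288 and 38 of 930 cells in i4F mice. Thinned, this was 1.78 and 0.923% against 10.0, 3.86 and 2.28% (difference 4.04 points, exact permutation p = 0.2, the smallest possible). The difference was 1.72 points without i4F 1, 2.26 points at full depth and 1.05 points when cells were thinned to 500 UMIs. The i4F values were all above the WT values, but the lowest of them lay closer to WT 1 than to i4F 1. In ductal cells 0.146% of WT and 0.102% of i4F cells held a Foxp3 UMI. Of the Foxp3 cells of i4F 1, 2 and 3, 1, 3 and 6 also held Cd4 and 1, 0 and 3 also held Cd8a or Cd8b1.

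**Figure D2:**
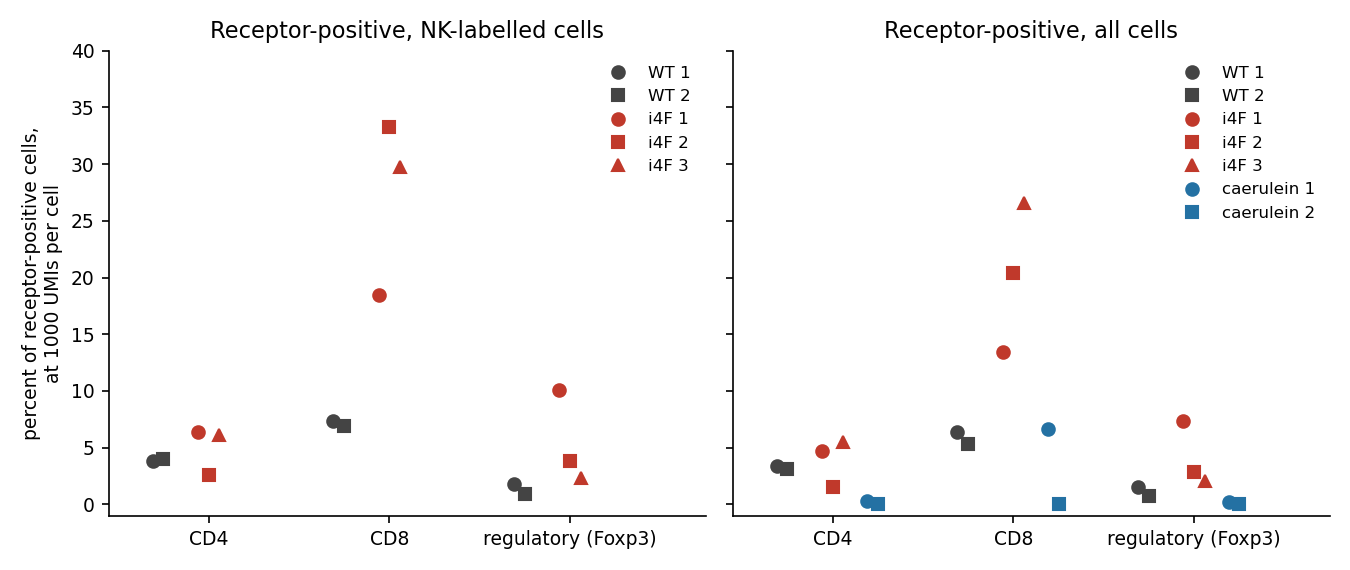
Shares of CD4, CD8 and regulatory cells in percent of receptor-positive cells, cells of at least 1000 UMIs thinned to 1000, within the NK label (left) and over all cells (right), with 1 point per mouse. The CD8 points of the i4F mice, 18.4 to 33.2% within the NK label, lie above the WT points near 7%, while the CD4 points of the groups overlap there.

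The co-receptor classes could be compared by genes that did not define them, in the NK-labelled cells of the i4F mice (15, 14 and 80 CD4 cells and 15, 65 and 258 CD8 cells). The values are descriptive, because the mice are 3 and the cells few. Ccl5, a chemokine of cytotoxic and memory T cells, stood at 3967, 898 and 2798 CPM in CD8 cells and at 2286, 391.9 and 286 CPM in CD4 cells. Nkg7, a cytotoxic granule gene, stood at 766, 611 and 974 CPM in CD8 cells against 369, 0 and 176 CPM in CD4 cells. Dapl1, a gene of naive CD8 T cells, stood at 191, 156 and 301 CPM (7, 12 and 132 UMIs) against 0, 98.0 and 51.4 CPM (0, 1 and 7 UMIs). These 3 genes were higher in the CD8 cells of all 3 mice, the order of Dapl1 in i4F 2 resting on 1 UMI in CD4 cells, but others of the same lists were not. Ifng gave 2, 0 and 20 UMIs in CD8 cells (54.7, 0 and 45.6 CPM) and 1, 0 and 10 UMIs in CD4 cells (73.8, 0 and 73.4 CPM). The granule protease gene Gzmb gave 24, 4 and 6 UMIs in CD8 cells and 0, 1 and 0 in CD4 cells, and Runx3, a transcription factor of the CD8 lineage, 4, 14 and 52 against 2, 0 and 12. In CPM Gzmb was lower in the CD8 cells of i4F 2 and Runx3 in those of i4F 1, orders that rest on 1 and 2 UMIs in CD4 cells. Tnfrsf4, a costimulatory receptor of activated and regulatory CD4 T cells, ran the other way, with 664, 1078 and 690 CPM in CD4 cells and 27.4, 221 and 36.5 CPM in CD8 cells. Icos, a costimulatory receptor, stood at 811, 588 and 360 CPM in CD4 cells and 137, 104 and 109 CPM in CD8 cells, and Izumo1r, a folate receptor of regulatory T cells, at 148, 98.0 and 433 CPM (2, 1 and 59 UMIs) against 0, 0 and 34.2 CPM (0, 0 and 15 UMIs). Ikzf4, of the regulatory list too, stood at 27.4, 52.0 and 25.1 CPM in CD8 cells against 0, 0 and 14.7 CPM in CD4 cells. In the CD4 cells of i4F 1 and i4F 2 a single UMI gives 73.8 and 98.0 CPM, more than these CD8 values. The order of Ikzf4 is therefore not resolved in those mice. The CD4 class also includes Foxp3 cells, with Foxp3 at 148, 490 and 58.7 CPM. How much these cells add to its values was not tested. Lef1 did not follow the co-receptor, with 148, 391.9 and 162 CPM in CD4 cells and 54.7, 390 and 390 CPM in CD8 cells.

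The Foxp3 cells carried several, but not all, of the other genes of the regulatory T cell list. In the 7, 10 and 38 Foxp3 cells of the i4F mice, Ctla4, an inhibitory receptor, stood at 1406, 1183 and 833 CPM, compared with 356, 156 and 137 CPM in CD8 cells. Ikzf2, the transcription factor Helios, stood at 1306, 394 and 527 CPM against 27.4, 143 and 43.3 CPM. Tnfrsf4 stood at 2411, 1872 and 1513 CPM. Ctla4, Ikzf2 and Tnfrsf4 were higher in Foxp3 cells than in CD8 cells, and than in the other receptor-positive cells, in 3 of 3 mice. Icos, at 502, 197 and 264 CPM in Foxp3 cells, was also above the CD8 cells (137, 104 and 109 CPM) in 3 of 3 mice. It lay below the CD4 cells (811, 588 and 360 CPM) in each mouse. Against the other receptor-positive cells (501, 291 and 247 CPM) it was lower in i4F 2 only, where its value rests on 2 UMIs. Il10 and Lrrc32 stood at 0 CPM in the Foxp3 cells of i4F 1, and above the other receptor-positive cells in i4F 2 and i4F 3. For Il10 that order rests on 1 UMI in the Foxp3 cells of each of these mice (98.6 and 13.9 CPM). The CD4 cells of i4F 2 held Il10 at 98.0 CPM. Il2ra, the alpha chain of the interleukin-2 receptor, gave only 1, 2 and 5 UMIs in Foxp3 cells (100, 197 and 69.4 CPM) and 0 in CD8 cells, and in i4F 1 it stood at 93.4 CPM (14 UMIs) in the other receptor-positive cells, close to the Foxp3 cells. Lef1 was low in Foxp3 cells, at 0, 98.6 and 27.8 CPM.

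Other genes of the T cell pathways gave 1 call among 51 tested in NK-labelled cells, 1.96% beside 1.51% of all genes. Of 16 tested genes of T cell receptor signalling, 11 T cell transcription factors, 8 genes of naive and recirculating T cells and 7 regulatory T cell genes, 0 passed the edgeR test in either direction. Their largest fold changes belonged to Trat1 (log2 fold change 1.29) and Lcp2 (-0.94) in signalling, to Satb1 (1.71) and Gata3 (-1.47) among the transcription factors, to Dapl1 (2.23) and the homing receptor Ccr7 (1.71) among the naive genes, and to Ctla4 (1.23) and Izumo1r (0.99) among the regulatory genes. Of 9 tested genes of activated and effector T cells, 1 passed, Ifng, the cytokine interferon gamma of NK and T cells, which fell by 2.51 on the log2 scale (SE 0.26, edgeR adjusted p = 0.00443). The medians of these 5 lists were 0.07, 0.53, 0.92, 0.38 and -1.03, beside 0.01 over all genes. Of the NK markers, Ncr1 fell by 3.45 (edgeR adjusted p = 0.0103) and Gzma by 3.36 (edgeR adjusted p = 0.0275). Ncr1 was below the level of the count filter in every i4F mouse and entered through the WT mice, which favoured lower i4F values. In receptor-positive cells alone, a choice made after seeing the data, the log2 fold change of Cd8a was 2.32, of Cd8b1 1.63, of Lef1 1.47 and of Cd4 1.04, close to those over the whole label, and 0 of the 9 genes tested passed (edgeR adjusted p from 0.103 to 0.266 for these 4). Foxp3 did not pass the filter there.

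Across labels and mice, the genes named here for following the summed CD3 genes closely were other T cell genes. Over 92 pairs of label and mouse with at least 20 cells, Pearson's r of the log2 level was 0.976 for Trbc1, the other beta constant gene, 0.976 for Lat, the adaptor phosphorylated by the receptor complex, 0.952 for the kinase Zap70 and 0.941 for Icos. The pairs share libraries and depth, and the values are a description. Within the NK label Lat stood at 361 and 449 CPM in WT and at 335, 334 and 487 CPM in i4F mice.

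Counted over all cells of the pancreas, the levels were highest in 1 of the i4F mice. Cd3d stood at 6.42 and 8.05 CPM in the WT mice and at 2.41, 6.12 and 88.4 CPM in i4F mice. Trbc2 stood at 13.0 and 15.4 CPM in WT and at 5.73, 12.1 and 174 CPM in i4F mice. In i4F 3 both genes were above all other mice, and in i4F 1 and i4F 2 both were below the WT mice. For Cd8a, with 0.832 and 0.339 CPM in WT and 0.413, 1.25 and 20.4 CPM in i4F mice, i4F 1 lay between the WT mice and the other two above them. Foxp3 and Lef1 were above WT in all 3 i4F mice, Foxp3 at 0.178 and 0.194 CPM in WT and at 0.215, 0.450 and 3.62 CPM in i4F mice, and Lef1 at 1.37 and 0.873 CPM in WT and at 3.09, 3.39 and 30.8 CPM in i4F mice.

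None of the 9 genes tested over all cells passed in i4F mice, and neither did any of the 18340 genes tested (edgeR adjusted p, 0% called). An unadjusted p under 0.05 was found for 6383 genes, 34.8%, among them Lef1 alone of the 9, while DESeq2 called 4351 genes, among them Cd8a, Cd8b1 and Lef1. Foxp3, with 3 and 4 UMIs in WT and 13, 17 and 56 UMIs in i4F mice, did not pass the filter on low counts. The log2 fold change ran from 1.73 (Cd3g, SE 1.42) to 4.03 (Cd8a, SE 1.77), and that of Lef1 was 3.85 (SE 1.21, edgeR adjusted p = 0.0873). Without i4F 3 the values of Cd3d, Cd3e, Cd3g, Trac, Trbc2 and Cd4 turned to between -0.11 (Cd4) and -1.12 (Cd3g), while Lef1 was 1.93 higher (edgeR adjusted p = 0.00386), in a fit in which 23.9% of all genes passed as higher. Among the 9 genes only Lef1 had every i4F mouse above both WT mice, an order found for 24.5% of all genes. Receptor-positive cells made up 1.92 and 2.16% of all cells after thinning in WT, against 0.820, 1.86 and 16.7% for i4F, with the groups overlapping (exact permutation p = 1). The place of i4F 1 and i4F 2 depended on the depth, since at full depth the shares were 1.87 and 2.94% in WT, against 2.77, 6.28 and 15.3% for i4F, and thinned to 500 UMIs 1.45 and 1.72%, against 1.501, 3.38 and 14.5%. At full depth 21 of 81 and 90 of 186 receptor-positive cells of the WT mice lay outside the NK label. In i4F mice 128 of 272, 228 of 516 and 233 of 1163 did. In i4F ductal cells, which should lack the receptor genes, 3.07% of cells were receptor-positive. The shares over all cells are therefore not shares of T cells alone. By the authors' labels, NK-labelled cells were 1.66 and 1.91% of all cells in WT, against 1.98, 4.16 and 13.0% for i4F.

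Not all Lef1 in the i4F pancreas belonged to T cells. The NK label held 66.5% of its 791 UMIs and the stellate labels 24.3%, compared with 90.2% and 0% of 41 UMIs in WT mice. In the label Activated_Pancreatic_Stellate_1, Lef1 gave 160 UMIs (137 of 4249 cells) in i4F 1, 20 UMIs (17 of 2555 cells) in i4F 2 and 3 UMIs (3 of 113 cells) in i4F 3. The stellate UMIs of Lef1 thus lay mainly in i4F 1, where they were 85.6% of all its Lef1 UMIs. With stellate-labelled cells left out, a choice made after seeing the data, the log2 fold change of Lef1 over all cells was 3.69 (edgeR adjusted p = 0.0879) beside 3.85 with them, but i4F 1 was no longer above WT. Lef1 then stood at 2.00 and 1.57 CPM (23 and 18 UMIs) in WT and at 1.57, 7.40 and 40.6 CPM (27, 108 and 464 UMIs) in i4F mice.

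The CD8 share was also computed over all cells, where the receptor-positive cells include those outside the NK label. It was 6.40 and 5.29% of receptor-positive cells in WT, against 13.4, 20.4 and 26.6% for i4F (difference 14.3 points, exact permutation p = 0.2), without overlap at this depth. At full depth i4F 1 with 5.88% lay between WT 2 with 4.84% and WT 1 with 6.17%, and thinned to 500 UMIs with 5.06% between 4.34 and 5.24%. The regulatory share was 1.55 and 0.707% in WT, against 7.31, 2.85 and 2.02% for i4F (difference 2.93 points, p = 0.2 in the exact permutation test). That difference was 1.31 points without i4F 1, 1.62 points at full depth and 0.998 points when cells were thinned to 500 UMIs. The CD4 share of 3.36 and 3.08% in WT overlapped with 4.67, 1.53 and 5.47% in i4F mice. Leaving out i4F 3 kept the difference of the CD8 share at 11.1 points and turned that of the CD4 share to -0.12 points.

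In the caerulein mice the CD3 and receptor genes were sparse. Cd3d stood at 2.42 and 1.35 CPM, Cd3e at 0.772 and 0.117 CPM (50 and 2 UMIs), Cd3g at 2.87 and 1.35 CPM and Trac at 1.42 and 0.936 CPM, each below both WT mice. Cd4 gave 27 and 2 UMIs and Foxp3 2 and 0 UMIs, and in caerulein 2 the floor of 3 counts allows up to 0.0426% of its cells to hold a Foxp3 UMI, which limits captured UMIs and not cells expressing the gene. The CD8 chains did not follow, with 0.864 and 0.585 CPM of Cd8a beside 0.832 and 0.339 CPM in WT, and 1.08 and 2.46 CPM of Cd8b1 beside 1.13 and 1.11 CPM. For both chains the plain CPM of the groups overlapped.

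None of the 9 genes passed against WT over all cells (edgeR), 0 had an unadjusted p under 0.05, and DESeq2 called 0, while 9.08% of the 18340 genes passed (944 higher, 5.15%, and 722 lower, 3.94%, or 652 and 2262 without TMM scaling). The log2 fold changes were -1.50 for Cd3d (SE 1.54), -1.97 for Cd3e (SE 1.74), -1.85 for Cd3g (SE 1.53), -1.98 for Trac (SE 1.42), -0.89 for Trbc2 (SE 1.43), -0.98 for Cd4 (SE 1.49) and -1.60 for Lef1 (SE 1.29), with edgeR adjusted p from 0.328 to 0.662. Those of Cd8a and Cd8b1 were 0.79 and 0.98 (SE 1.75 and 1.76). These standard errors hold the spread of all 7 mice, i4F 3 included. Fitted on the WT and caerulein mice only, Cd3d, Cd3g, Trac, Trbc2 and Lef1 fell (edgeR adjusted p from 0.0141 to 0.0400), 5 of 9 genes where 24.2% of all genes fell. With all mice but i4F 3, Cd3g, Trac and Lef1 fell by 1.83, 1.96 and 1.58, 3 of 9 genes where 25% of all genes fell. In the fit of all 7 mice Cd4 and Lef1 reached the level of the count filter in 0 caerulein mice and entered through the others, which favoured lower values in caerulein mice. Scaled for composition, both caerulein mice were below both WT mice for 7 of the 9 genes, where 40.3% of all genes were so ordered, and above them for Cd8b1, where 36.3% were. The 2 caerulein mice share a library name series with WT 2 and not with WT 1, and against WT 2 alone the log2 fold change was -1.73 for Cd3d, -2.21 for Trac and -1.35 for Lef1.

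**Figure D3:**
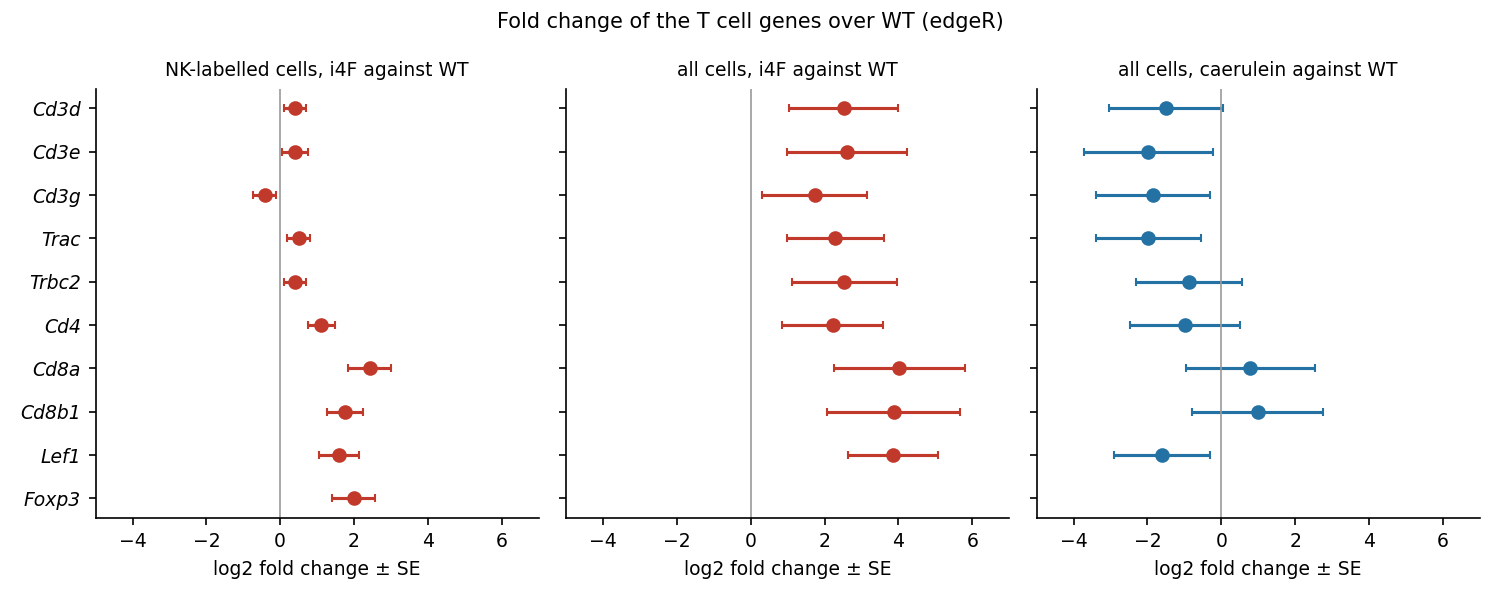
Log2 fold change over WT with its standard error from the edgeR fit, for the 10 genes in NK-labelled cells (left) and over all cells in i4F (middle) and caerulein mice (right). Foxp3 is missing over all cells because it did not pass the filter, and the bars over all cells, 1.21 to 1.81 wide on each side, are longer than those within the NK label, 0.30 to 0.58.

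Other genes of the T cell lists gave calls in both directions over all cells in caerulein mice. Of 16 tested signalling genes, 1 rose (Lcp2, by 2.47 on the log2 scale, an adaptor also used by myeloid cells) and 1 fell (Plcg1, by 0.96), of 13 transcription factors 1 rose (Runx3, by 2.43), of 8 naive genes 1 fell (Ly6c1, by 2.88, a gene also of endothelial cells), of 10 regulatory genes 1 rose (Il10, by 5.52, a cytokine also of macrophages) and of 12 effector genes 1 rose (Havcr2, by 2.16). These are 6 of 59 tested genes (10.2%) beside 9.08% of all genes, and all 6 calls are lost when either WT mouse, either caerulein mouse or i4F 2 is left out or the library name series is a term, as 0 genes pass there. Of the 7 myeloid markers 6 rose, and these calls are lost in the same way. The medians of the 5 lists ran from -2.01 for signalling to -0.94 for the effector genes, beside -0.06 over all genes. In i4F mice 0 genes of these lists passed over all cells, and their medians ran from 0.08 for the transcription factors to 1.70 for signalling, beside 0.04 over all genes. Among the largest i4F values of these 5 lists were Il10 (3.995), Trat1 (3.17), Il17a (2.97) and Tcf7 (2.89).

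The CD3 UMIs of the caerulein mice lay mainly in a label that its name does not describe. The label B_lymphocytes held 74.4% of the 180 Cd3d UMIs, 63.5% of the 52 Cd3e UMIs, 77.3% of the 66 Cd8a UMIs and 80.4% of the 112 Cd8b1 UMIs. Only 6.64 and 5.28% of its cells held a UMI of any of 5 B cell markers, compared with 79.6 to 100% of the cells so labelled in WT and i4F mice. At least 2 receptor UMIs were found in 92 of its 994 cells in caerulein 1 and in 19 of its 398 cells in caerulein 2. Of these T cell receptor-bearing cells, 10 and 2 held a CD8 UMI, 2 and 0 held Cd4, and 1 and 0 held Foxp3. In the same label 27 and 16 cells held a CD8 UMI without any receptor UMI, and 1 and 2 held one beside a single receptor UMI. Most of the cells with a CD8 UMI in this label were thus not receptor-positive. Of the 872 and 370 cells without a receptor UMI, 820 and 335 held a UMI of the 9 NK cell markers, mostly of Tyrobp (800 and 311 cells) or Fcer1g (753 and 295 cells), signalling adaptors that myeloid cells also use. The other 7 NK cell markers were seen in 124 and 30 of these cells and the 7 myeloid markers in 709 and 251. Of the 27 and 16 cells with a CD8 UMI and no receptor UMI, 27 and 15 held Tyrobp, 1 and 0 any of the other 7 NK cell markers, and 19 and 3 a myeloid marker. Of the cells with at least 2 receptor UMIs 9 and 1 held Tyrobp.

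Cd8a outside T cells was also seen in the other groups. In WT mice 42.9% of its 21 UMIs lay in macrophage labels, 6 UMIs in 1 cell of WT 1 and 3 UMIs in 2 cells of WT 2. In i4F 3 the label Macrophages_3 held 28 Cd8a UMIs in 12 cells with 1 UMI of Cd8b1, none of the 12 cells being receptor-positive. Cd4 had 15 of its 30 UMIs in WT and 74.0% of its 173 UMIs in i4F mice inside the NK label, the lowest share of the 10 genes in WT.

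**Figure D4:**
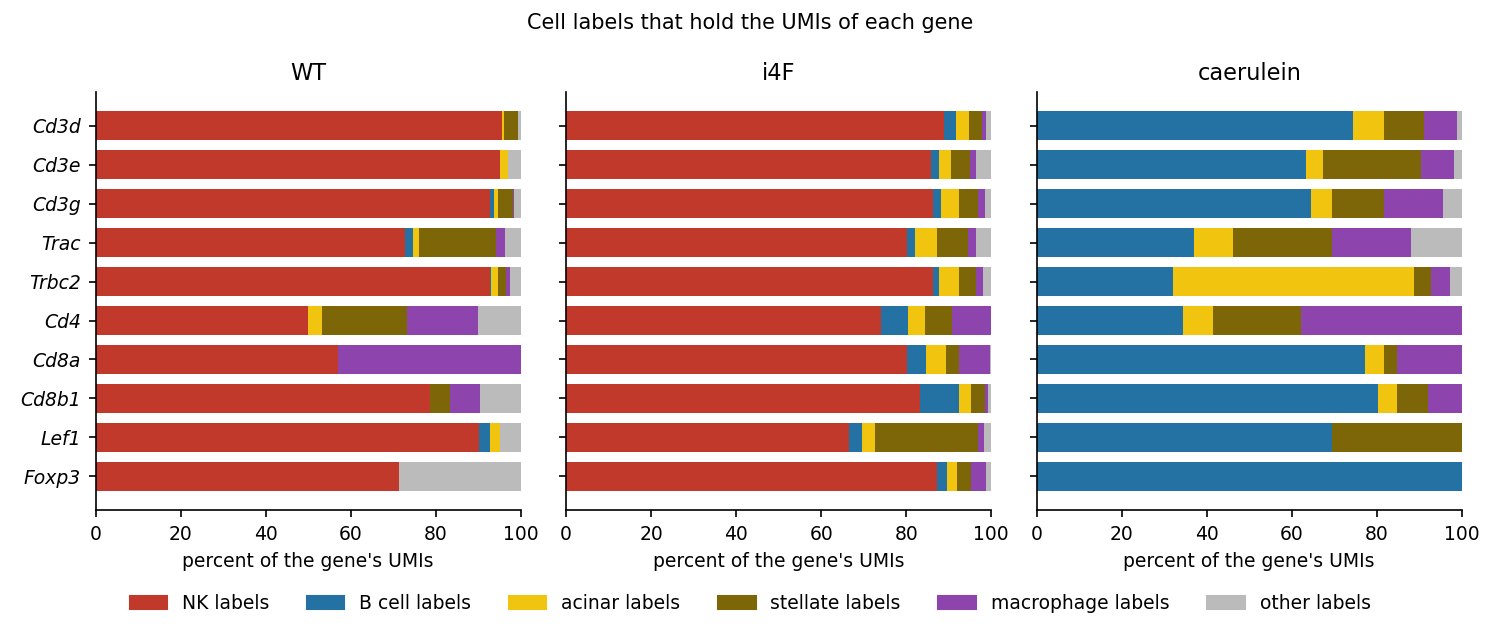
Percent of the UMIs of each gene that lay in cells of each kind of label, summed over the mice of a condition. The NK labels (red) hold most UMIs of each gene in WT and i4F mice except Cd4 in WT, with 15 of 30, the caerulein table has no NK label and most of its CD3 and CD8 UMIs lie in the B cell label (blue), and 56.7% of its Trbc2 UMIs lie in acinar cells (yellow).

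Trbc2 departed from the other receptor genes in acinar cells, the enzyme-secreting cells of the pancreas. In acinar-labelled cells of the caerulein mice it gave 177 UMIs in 128 of 1542 cells (8.30%) and 81 UMIs in 71 of 1094 cells (6.49%), and no cell held more than 5 UMIs. The same cells gave 25 and 0 UMIs of the 3 CD3 genes together, 9 and 1 of Trac and 12 and 2 of Trbc1. There were thus 7.08 Trbc2 UMIs per CD3 UMI in acinar cells of caerulein 1, compared with 0.448 in its other cells and 0.688 to 0.924 in the NK-labelled cells of the WT and i4F mice. In i4F 1 the ratio in acinar cells was 5.00 (30 to 6 UMIs), and in i4F 2 and i4F 3 it was 1.38 and 1.02. In the acinar cells of i4F 1 the Trac UMIs, 21, were also more than the CD3 UMIs, with 10 of Trbc1. WT acinar cells gave 1 and 7 Trbc2 UMIs at 1.30 and 8.56 CPM, compared with 30.0 and 33.5 CPM in caerulein mice, but they were shallower, with a median of 431 and 502 UMIs against 2213.5 and 1322.5. Trbc2 lies at chr6:41546730-41548352 (GRCm38) in the T cell receptor beta locus, 6848 bases past the end of Trbc1, and the same region of the chromosome holds trypsinogen genes, which acinar cells express at a high level, such as Prss3 at chr6:41373814-41377678 and Try10 at chr6:41354105-41357914. The 10 acinar marker genes of the marker list were not analysed here. Without acinar-labelled cells, a choice made after seeing the data, the log2 fold change of Trbc2 in caerulein mice was -2.07 in place of -0.89, near those of Trac and the CD3 genes.

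**Figure D5:**
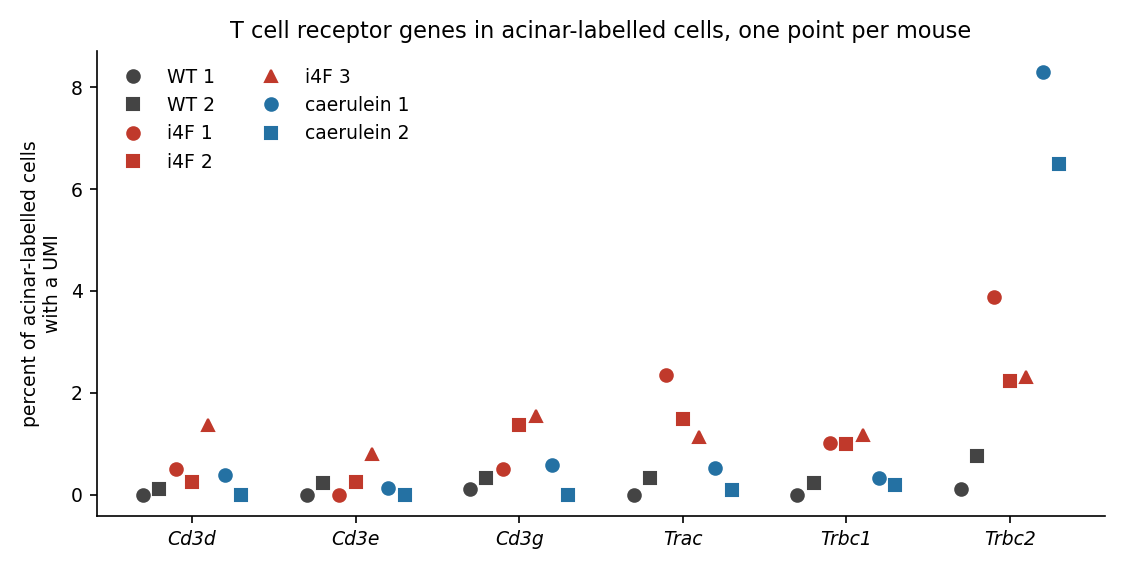
Percent of acinar-labelled cells with a UMI of each T cell receptor gene, with 1 point per mouse (WT dark grey, i4F red, caerulein blue). Trbc2 reaches 8.30 and 6.49% in the caerulein mice, while the other 5 genes reach at most 0.584% in these mice, and i4F points of Trac reach 2.36%.

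Trac was also found apart from the CD3 genes in other labels. In the WT mice the label Activated_Pancreatic_Stellate gave 12 and 24 Trac UMIs in 9 of 114 and 21 of 161 cells, at 30.6 and 55.2 CPM, while 0 cells of this label held a UMI of Cd3d, Cd3e or Cd3g in either mouse. In the i4F and caerulein mice Trac stood at 0.681 to 3.95 CPM in the label Activated_Pancreatic_Stellate_1, and it reached 6.60 CPM in the label Activated_Pancreatic_Stellate_2 of i4F 3. The label Smooth_muscle gave 1, 3 and 18 Trac UMIs in the i4F mice (5.40, 18.7 and 113 CPM), with 0, 0 and 3 cells holding a CD3 UMI, and 6 and 0 UMIs in the caerulein mice (23.2 and 0 CPM). Of the 18 UMIs of i4F 3, 11 lay in 1 cell, so its 113 CPM is not a level of the whole label.

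These exceptions enter the subset shares over all cells in caerulein mice. With all 5 receptor genes, 409 and 115 cells were receptor-positive, 139 and 72 of them labelled acinar. The CD8 share was 6.60 and 0% after thinning, beside 6.40 and 5.29% in WT, and its order changed with the depth. At full depth both caerulein mice, with 4.40 and 3.48% (18 of 409 and 4 of 115 cells), lay below WT with 6.17 and 4.84%, and thinned to 500 UMIs both lay above, with 5.44 and 7.47% against 5.24 and 4.34%. With at least 2 receptor UMIs at full depth the groups overlapped, with 10.9 and 6.25% against 6.78 and 9.38%. The CD4 share was 0.274 and 0% after thinning, and 0.733 and 0% at full depth (3 of 409 and 0 of 115 cells). After thinning the CD4 share, the regulatory share (0.189 and 0%) and the receptor-positive share (0.671 and 0.551%) lay below both WT mice. The exact permutation test gave p = 0.33, the smallest value that 2 against 2 mice allow. At full depth the receptor-positive share was 2.70 and 1.63%, overlapping with 1.87 and 2.94% in WT. When only Cd3d, Cd3e and Cd3g defined a receptor-positive cell, a choice made after seeing the data, the CD8 share was 10.9 and 0% in caerulein mice beside 9.03 and 6.97% in WT, and 14.6, 24.3 and 28.5% for i4F. The 0% of caerulein 2 is a share of 2.84 expected cells after thinning, and at full depth 3 of its 21 cells were CD8 cells. The CD4 share was 0.245 and 0% beside 4.77 and 3.10% in WT. Of the co-receptor UMIs in receptor-positive cells, Cd4 took 3 of 47 and 0 of 10 in caerulein mice, with exact 95% intervals up to 17.5 and 30.8%, and 20.7 and 26.7% in WT.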

How the data were processed

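Transcripts of single pancreatic cells were measured in 7 mice, 1 library each. Starting from 10x Genomics 3′ libraries, the authors mapped reads to mm10 with Cell Ranger (version not given in the sources used here), corrected ambient RNA with SoupX, removed cells with under 150 genes or over 5 percent mitochondrial UMIs, and named clusters with Seurat. The deposited tables, 1 per condition, hold whole-number UMI counts per gene and cell, and whether SoupX preceded them is not stated, which bears on low counts outside T cells. The deposited metadata give each cell's total count, the percent of mitochondrial UMIs and the authors' label, and no doublet removal is stated. All cells were kept here, except that cells with markers of another lineage (3 to 137 per mouse) were left out as an alternative. Genes missing from 1 table counted as 0 there.

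UMI counts were summed per mouse, over NK-labelled cells and over all cells, and tested with edgeR 4.0.16 (R 4.3.3, TMM, filterByExpr, quasi-likelihood, Benjamini-Hochberg over all genes tested, threshold 0.05), with all mice of a class in 1 fit. DESeq2 1.42.0 was an alternative. Standard errors were taken from the fold change and its F statistic. The fits were tested on simulated counts. Shares were computed as the expected value after drawing 1000 UMIs from each cell of at least 1000, and compared by exact permutation over mice with scipy 1.17.1, 14 tests in all. Intervals are exact binomial (95%), a floor is 3 counts, and both cover counting error only. With a smallest p of 0.2 or 0.33 the share tests cannot pass 0.05. Mice are separate animals, and 0 columns of other samples were present.

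The 10 genes, the gene lists and the tests were chosen with earlier results of these data known. The genes named are the 10 genes, the 5 genes most alike to the summed CD3 genes by log2(CPM + 10), and from each pathway list the genes that passed (at most 4) or, with none, the 2 with the largest fold change. The genes named in subsets, in acinar and in stellate cells were chosen after their values were seen. Some genes that this rule names are not reported here. The NK-labelled comparison of caerulein mice could not be made, since their table has no such label. Settings tried were DESeq2, no TMM, no filter, only the groups compared, a replicate block, the library name series, cells with at least 500 genes, cells without mixed markers, other depths and definitions of receptor-positive cells, and each mouse left out. Added after seeing the data were fits without acinar- or stellate-labelled cells and on receptor-positive cells, a crossed block, and CD3 genes alone.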

Additional observations from a re-analysis of the deposited data

How the results depend on the processing

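The direction of the fold change in NK-labelled cells held for each of the 10 genes in every alternative that gave a value for it, with 5 alternatives at which Cd8a passed the edgeR or DESeq2 threshold and 2 each for Cd8b1 and Lef1. Foxp3 did not pass the filter in cells with at least 500 genes, in receptor-positive cells or without any 1 i4F mouse, so it has no value there, and the 5 receptor genes were not compared in receptor-positive cells, which they define. The count of genes called in NK-labelled cells, 54, was 100 with DESeq2, 247 without the filter and 198 with a replicate block, and 8 to 101 with a mouse left out (10 without WT 1, 8 without i4F 2, 101 without i4F 1 or i4F 3). The members called, 0, were 1 with DESeq2, 3 without the filter, 1 with the replicate block, 1 in cells with at least 500 genes, and 0 to 3 with a mouse left out. Over all cells in i4F mice the 0 genes called became 4351 (DESeq2), 2408 (no TMM, 456 higher and 1952 lower), 2076 (no filter), 8138 (replicate block) and 1621 (without stellate-labelled cells, added after seeing the data), and 0 to 9543 with a mouse left out, the highest without i4F 3. The members called there were 3 with DESeq2 and 1 each without the filter and with the replicate block, and 0 to 1 with a mouse left out. In caerulein mice 1666 genes became 5484 (DESeq2), 2914 (no TMM), 2830 (no filter), 8024 (only the 2 groups compared), 7426 (replicate block), 0 (library name series as a term, with 4063 at an unadjusted p under 0.05) and 3629 (without stellate-labelled cells), and 0 to 8909 with a mouse left out, being 0 without either WT mouse, either caerulein mouse or i4F 2. The members called there were 5 with only the 2 groups compared and 3 with the replicate block, and 0 to 3 with a mouse left out. Why these counts moved was not tested. Without TMM the median of all genes moved from 0.01 to -0.12 in NK-labelled cells, from 0.04 to -0.34 over all cells in i4F mice and from -0.06 to -0.45 in caerulein mice, and no gene of the 10 changed direction.

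The i4F fold changes over all cells that reversed did so without i4F 3 and with the replicate block, which leaves i4F 3 without a partner. With the block they were -0.45 (Cd3d), -0.40 (Cd3e), -1.15 (Cd3g), -0.19 (Trac), -0.35 (Trbc2) and -0.10 (Cd4). With a mouse left out they ran from -0.41 to 3.08 (Cd3d), -0.34 to 3.19 (Cd3e), -1.12 to 2.30 (Cd3g), -0.12 to 2.84 (Trac), -0.31 to 3.09 (Trbc2) and -0.11 to 2.77 (Cd4). Same-numbered mice share only a number, and their deviations correlated at 0.08 and -0.06 in NK-labelled cells, at -0.04 and -0.02 over all i4F cells and at -0.37 in both caerulein pairs. On the WT and caerulein mice alone the block gave 4829 genes and 1 member called, and crossed numbers gave 9911 and 6, both added after seeing the data. The caerulein CD8 share difference, -2.54 points, was 1.67 when cells were thinned to 500 UMIs and 0.49 with at least 2 receptor UMIs at full depth, and ran from -5.84 to 0.76 with a mouse left out. In i4F mice the CD4 share difference over all cells ran from -0.12 to 1.85 points and the receptor-positive share from -0.70 to 7.26 points with a mouse left out. The CD8 share difference in NK-labelled cells stayed between 7.08 and 24.3 points and the regulatory one between 1.05 and 5.59 points, but i4F 1 lay within the WT range of the CD8 share when cells were thinned to 500 UMIs. Where a group kept 1 mouse, it was assumed to vary like the others. The NK-labelled comparison of caerulein mice was not run, since the label is missing there. Depth limits the rare genes most, since Foxp3 gave 2 and 3 UMIs and Cd8a 8 and 4 UMIs in the NK-labelled cells of the WT mice.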
